A study of Mus musculus with 6 samples.

Results

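Replacement histone variants are histones made outside of DNA replication from genes that lie apart from the histone clusters, and most of their messenger RNAs carry a poly(A) tail. The members described here are 9 genes, taken by symbol from a table of 24407 genes: H2afz and H2afv, which code for H2A.Z; H2afx, which codes for H2A.X; H2afy, which codes for macroH2A; H2afj, which codes for H2A.J; H3f3a and H3f3b, which code for H3.3; and the linker histone genes H1f0 and H1fx. Their transcripts were compared in islets of Langerhans, the endocrine clusters of the pancreas, between wild-type mice (WT) and mice that carry a changed Lmna gene giving lamin C and no lamin A (LCS). All mice were C57BL/6, were 70 weeks old and ate regular chow. Each genotype had 3 libraries, labelled as polyadenylated RNA and made with a stranded kit, and each library came from the pooled islets of 3 mice, so replicates were pools and not single animals.

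A cell that divides takes most of its histones from the replication-dependent cluster genes, whose messenger RNAs end in a stem-loop in place of a poly(A) tail. A cell that rarely divides, as most islet cells of adult mice do, replaces worn or evicted histones from the replacement genes. H2A.Z and H3.3 are placed at promoters and enhancers, macroH2A marks silent chromatin, H2A.X is phosphorylated beside DNA breaks, H2A.J gathers in senescent cells, and H1.0 builds up in resting and differentiated cells.

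The RefSeq promoter table (build GRCm38.p6, 250 bases before to 50 after the transcript start) had an entry for 8 of the 9 genes, with H2afx the exception. The count table was made on mm9, so these sequences serve only to show the genes' control regions. CCAAT, the box bound by NF-Y, was searched on both strands together with the octamer ATGCAAAT and with TATAAA, and no match of 1 motif overlapped another in the member promoters. At least 1 CCAAT stood in 5 of the 8 promoters and in 37.4% of all 32851 promoters of that table. H2afz and H2afj had 3 each and H2afv and H3f3b 4 each, where 3.37% of all promoters had 3 or more and 1.06% had 4 or more. H3f3a had 1, and H2afy, H1f0 and H1fx had none. Counted from the transcript start, the boxes of H2afz lay at -78, -21 and 24, those of H2afj at -142, -76 and -31, those of H2afv at -242, -222, -57 and -15, and that of H3f3a at -22. In H3f3b they lay at -212, -188, -165 and -95, all on the sense strand, ahead of the octamer at -70 and TATAAA at -24. The members' promoters ranged from 55.0% GC (H3f3b) to 77.7% GC (H1fx), and the median of all promoters was 52.7%. H3f3b alone among the 8 also held the octamer (1.74% of all promoters) and TATAAA (13.6%). The 4 promoters rich in CCAAT are printed with that of H3f3a, which codes for the same protein as H3f3b, with CCAAT or its complement ATTGG and the octamer in capitals. A match is a description of letters and not a bound site.

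H2afz, chr3:137864237-137864536, + strand: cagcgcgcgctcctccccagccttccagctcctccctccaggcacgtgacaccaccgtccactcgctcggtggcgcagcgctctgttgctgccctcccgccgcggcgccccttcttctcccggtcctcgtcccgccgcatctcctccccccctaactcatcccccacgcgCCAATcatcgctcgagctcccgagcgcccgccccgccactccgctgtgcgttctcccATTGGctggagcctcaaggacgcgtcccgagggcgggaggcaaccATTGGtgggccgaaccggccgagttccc
H2afv, chr11:6444394-6444693, - strand: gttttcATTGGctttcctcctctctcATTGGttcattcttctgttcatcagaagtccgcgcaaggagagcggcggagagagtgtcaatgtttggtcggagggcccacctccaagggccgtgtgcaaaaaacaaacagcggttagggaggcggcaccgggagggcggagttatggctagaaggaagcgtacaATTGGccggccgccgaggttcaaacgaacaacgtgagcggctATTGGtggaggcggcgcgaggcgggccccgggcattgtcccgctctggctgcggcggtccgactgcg
H2afj, chr6:136807998-136808297, + strand: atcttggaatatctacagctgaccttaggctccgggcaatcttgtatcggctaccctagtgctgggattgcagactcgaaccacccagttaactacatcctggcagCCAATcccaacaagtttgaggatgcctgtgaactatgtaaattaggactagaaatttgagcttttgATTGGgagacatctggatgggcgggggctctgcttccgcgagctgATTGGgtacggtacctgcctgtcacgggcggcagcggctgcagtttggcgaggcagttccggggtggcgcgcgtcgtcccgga
H3f3b, chr11:116024455-116024754, - strand: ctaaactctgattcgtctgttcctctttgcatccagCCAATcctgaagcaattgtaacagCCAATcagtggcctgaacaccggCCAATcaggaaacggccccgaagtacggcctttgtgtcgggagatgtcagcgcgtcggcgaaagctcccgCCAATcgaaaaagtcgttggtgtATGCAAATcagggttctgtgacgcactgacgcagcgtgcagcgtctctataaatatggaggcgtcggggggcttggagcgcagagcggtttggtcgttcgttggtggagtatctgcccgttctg
H3f3a, chr1:180813556-180813855, - strand: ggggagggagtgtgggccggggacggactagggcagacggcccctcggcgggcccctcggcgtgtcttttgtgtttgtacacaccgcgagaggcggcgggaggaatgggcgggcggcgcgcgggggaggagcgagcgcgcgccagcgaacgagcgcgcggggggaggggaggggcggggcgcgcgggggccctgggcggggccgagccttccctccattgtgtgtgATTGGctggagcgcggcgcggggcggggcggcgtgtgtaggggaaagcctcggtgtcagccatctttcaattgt

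**Figure D1:**
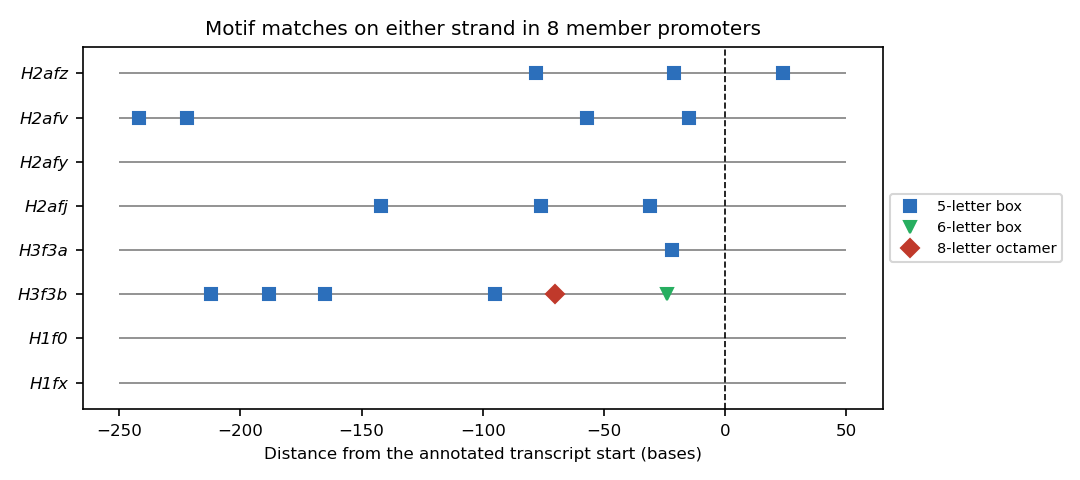
Position of each motif match (horizontal axis, bases from the annotated transcript start, dashed line) in 8 promoters, with squares for CCAAT on either strand, a diamond for the octamer and a triangle for TATAAA. H2afz, H2afv, H2afj and H3f3b carry 3 or 4 squares, H3f3a carries 1, and H2afy, H1f0 and H1fx carry none.

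The other end of the transcript separates H2afx from the remaining members. The histone stem-loop, spelled as GG, any 2 bases, CTTTT, any base, AG, any 2 bases and CC, was searched on the sense strand of GENCODE M21 coding transcripts (GRCm38) and was present in 1 of the 9 member genes, H2afx. It was present in 44 of 67 histone cluster genes and in 0.329% of all genes with a coding transcript. In the annotated H2afx transcript 822 bases followed the stem-loop. The 2 matching genes among the 4 most abundant cluster histone genes here, Hist1h1c and Hist1h1e, also had annotated transcripts that ran on, by 840 and 1153 bases. The match is shown in capitals with 7 bases on each side.

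H2afx, chr9:44335233-44335262, + strand: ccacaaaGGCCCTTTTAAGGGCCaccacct
Hist1h1c, chr13:23739505-23739534, + strand: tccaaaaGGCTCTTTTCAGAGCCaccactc
Hist1h1e, chr13:23621775-23621804, - strand: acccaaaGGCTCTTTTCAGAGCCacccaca

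Libraries held 26123654 to 68036676 counts, and 19057533 to 32462401 outside Rn45s, Lars2 and Mir6236, the rows that follow ribosomal RNA. These rows took 52.3% to 54.1% of the LCS counts but 18.5%, 7.64% and 9.999% of the counts of WT replicates 1 to 3. WT replicate 1 stood apart from the other WT libraries: without it 1857 genes were called higher in LCS and 1142 lower, against 300 and 21 with all 6 libraries. The fit without it is therefore given beside each result whose call it changed. Lmna itself had 62.0 to 78.9 CPM (the count scaled to library size with TMM factors) in LCS and 61.3, 27.3 and 21.0 CPM in WT, a count per gene that does not separate the lamin A and lamin C messages and so does not check the labels. The beta cell markers, insulin among them, summed to 147933 to 172357 CPM in WT and 175311 to 263797 CPM in LCS, so the defining transcripts of the labelled tissue were abundant in all libraries. Single beta markers went both ways, from -0.77 to 0.63 on the log2 scale with a median of 0.11, and 0 of 10 were called. At an unadjusted p below 0.05, 1 was higher and 2 lower by edgeR, where 13.3% of all genes were higher and 10.8% lower. Acinar cell markers summed to 157 to 252 CPM in WT and 566 to 1006 in LCS, with 19 of 20 tested called higher and Amy2a5 at 0 in all libraries. Of all genes, 2.06% were called higher and 0.144% lower with all 6 libraries, the background for each marker list here. Markers of delta, PP and epsilon cells, the rarer endocrine types, summed to 1148 to 2807 CPM in WT and 4993 to 8316 CPM in LCS without overlap, with 2 of 6 called higher, 5 of 6 higher at an unadjusted p below 0.05 and a median of 1.26 on the log2 scale. Alpha cell markers summed to 12686 to 16713 CPM in WT and 16564 to 21848 CPM in LCS. Of the 8 alpha markers, 1 was called higher and 0 lower, at a median of 0.60. Their log2 fold changes ran from -0.92 to 0.93, and 7 were above 0. In 6 of them every LCS library exceeded every WT library, and in 1 every WT library exceeded every LCS library. Over all genes these shares were 14.6% and 12%. Leukocyte markers reached 60.6 to 77.1 CPM in WT and 77.9 to 102 in LCS with 1 of 12 tested called higher, and markers of cycling cells 62.4 to 76.6 and 73.2 to 87.1 with 0 of 14 called by edgeR. Duct markers had 0 of 7 tested called by edgeR at a median of 0.02. Endothelial and mesenchymal markers had 0 of 11 called at a median of 0.05. Without WT replicate 1, 12.5% of all genes were called higher and 7.68% lower. In that fit 2 of 10 beta markers were called higher and 3 lower, and 3 of 8 alpha markers higher and 1 lower. Called higher were also 5 of 6 delta, PP and epsilon markers, 2 of 12 leukocyte, 1 of 14 cycling and 19 of 20 acinar markers. So were 2 of 7 duct markers and 2 of 11 endothelial and mesenchymal markers, at medians of 0.86 and 0.40. The part of these cells and of the ribosomal RNA rows in the results was not tested, and in pooled tissue more cells of a type cannot be told apart from more RNA per cell.

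None of the 9 members passed the test between genotypes (edgeR quasi-likelihood test, Benjamini-Hochberg adjusted p under 0.05 over all 14539 genes), in a background of 2.06% of genes called higher and 0.144% called lower. At an unadjusted p below 0.05, 5 members were higher and 0 lower, where 13.3% of all genes were higher and 10.8% lower at that level. DESeq2 called 4 members higher (H2afz, H2afv, H2afj and H3f3a; 6.44% of all genes) and limma-voom called 1 (H2afz; 2.54%). Without a filter on low counts edgeR called 3 (H2afz, H2afv and H2afj; 2.95%). It called 0 with DESeq2 size factors (1.95%), without the ribosomal RNA rows (2.08%), without acinar genes (1.83%) and among protein-coding genes alone (1.69%). Among genes of at least 10 CPM on average (3.56%) it also called 0, with 6 of the 9 members tested. Fold changes, given as log2 of LCS over WT, were above 0 for 8 members and for 51.1% of all genes tested, with a median of 0.80 over the 9 genes and 0.012 over all genes. In 6 members no WT library reached the lowest LCS library, as in 14.6% of all genes. The common biological coefficient of variation was 21.2%, a spread between pools that limits what 3 against 3 libraries can resolve.

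**Figure D2:**
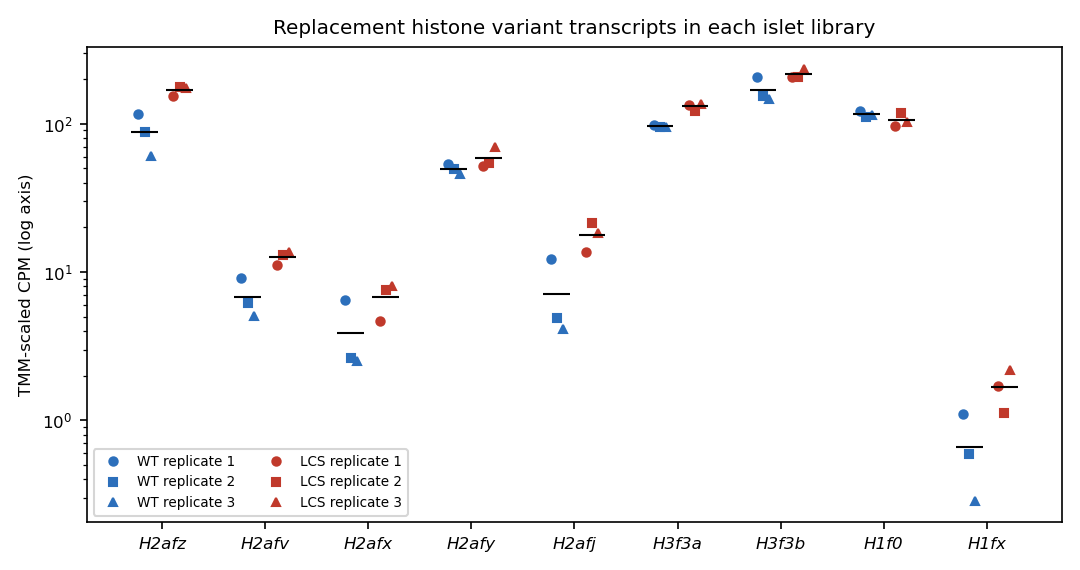
CPM scaled by TMM (log axis) of the 9 genes by library, with WT as blue and LCS as red points, symbols for replicates 1 to 3 and a bar for each mean. H2afz, H2afv, H2afj and H3f3a lie higher in all LCS libraries, H3f3b and H1fx only just so, and WT replicate 1 is the highest WT library for every gene.

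The H2A.Z genes had the smallest p-values of the members. Over replicates 1 to 3, H2afz stood at 153, 177 and 174 CPM in LCS, and at 116, 88.4 and 60.5 CPM in WT. The WT libraries spread more widely than the LCS libraries, and the highest of them stood at 76.3% of the lowest LCS library. The log2 fold change was 0.92 (SE 0.22), a 1.90-fold difference that missed the threshold (edgeR adjusted p = 0.0585). H2afv, the less abundant gene for H2A.Z, had 11.1, 13.02 and 13.6 CPM in LCS and 9.17, 6.19 and 5.04 CPM in WT. The order of the libraries was the same in WT as for H2afz, and the log2 fold change was 0.88 (SE 0.23, edgeR adjusted p = 0.0751).

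The balance between the H2A.Z genes overlapped between genotypes. H2afv gave 6.79%, 6.86% and 7.22% of the H2afz and H2afv counts in LCS and 7.30%, 6.55% and 7.69% in WT. The means were 6.96% ± 0.229 and 7.18% ± 0.581 (SD, n = 3), with p = 0.6 in an exact permutation test, two-sided.

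H2afj, the H2A.J gene, had a 2.50-fold difference, beside 2.48-fold for H1fx, and the order of these genes changed between fits. It had 13.6, 21.4 and 18.2 CPM in LCS and 12.2, 4.89 and 4.13 CPM in WT. WT replicate 1 lay next to the lowest LCS library, at 89.9% of it, while the other WT libraries lay far under both. The log2 fold change was 1.32 (SE 0.37, edgeR adjusted p = 0.0894). H2afj made up 6.69% ± 1.03 of the summed counts of the 5 H2A genes in LCS and 4.31% ± 1.63 in WT (SD, n = 3), with overlap through WT replicate 1 at 6.18%.

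H2afx, the DNA damage variant that also carries the stem-loop shown above, overlapped between genotypes. Its libraries had 4.65, 7.58 and 8.10 CPM in LCS and 6.49, 2.64 and 2.51 CPM in WT, with a log2 fold change of 0.80 (SE 0.38, edgeR adjusted p = 0.228). WT replicate 1 exceeded LCS replicate 1. H2afy, the macroH2A gene, had 52.1, 54.4 and 69.3 CPM in LCS and 53.3, 49.4 and 45.5 CPM in WT, and differed by 0.25 on the log2 scale (SE 0.16, edgeR adjusted p = 0.356). The range of H2afy within LCS was wider than the difference between the means of 58.6 and 49.4 CPM.

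The H3.3 genes had smaller fold differences, of 1.36 for H3f3a and 1.28 for H3f3b. H3f3a had 134, 122 and 135 CPM in LCS and 97.7, 94.9 and 94.9 CPM in WT, with the tightest WT values of the 9 genes relative to their mean. The log2 fold change was 0.45 (SE 0.13, edgeR adjusted p = 0.0913), and the groups did not overlap. H3f3b had 205.8, 206.4 and 234.9 CPM in LCS and 205.6, 152.5 and 147.2 CPM in WT, so that WT replicate 1 reached 99.9% of the lowest LCS library and the groups were only just apart. Its log2 fold change was 0.36 (SE 0.17, edgeR adjusted p = 0.224).

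Both H3.3 genes code for the same protein, and their balance did not separate the genotypes. H3f3a gave 39.5%, 37.2% and 36.5% of their joint counts in LCS and 32.2%, 38.4% and 39.2% in WT (means 37.7% ± 1.57 and 36.6% ± 3.82, SD, n = 3), with p = 0.8 in an exact permutation test, two-sided. The difference of 1.15 percentage points became -1.04 without WT replicate 1. H3f3a, H3f3b and H2afz belong to families with processed pseudogenes of nearly the same sequence, so their counts depend on how reads with several matches were treated, on which the sources used here are silent.

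**Figure D3:**
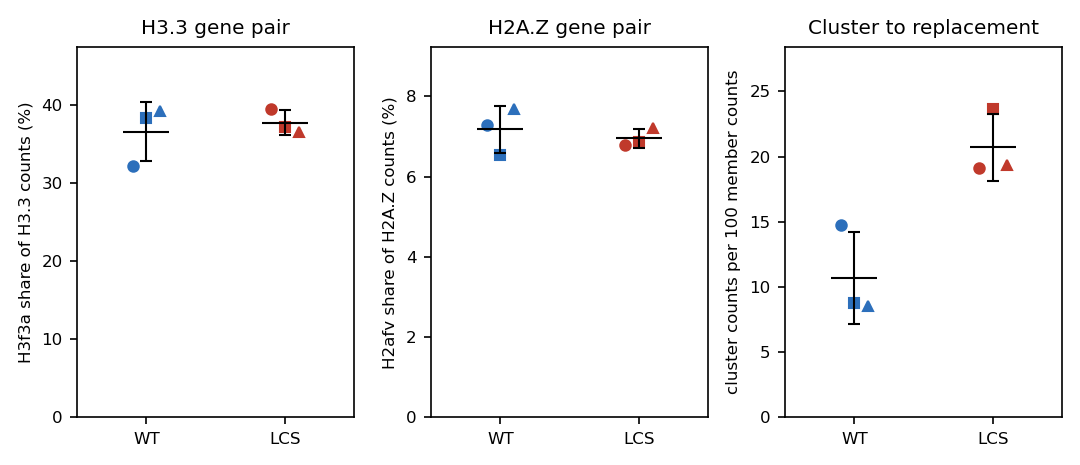
Points are libraries (circle, square and triangle for replicates 1 to 3), and bars with whiskers are mean and SD (n = 3): H3f3a as a share of H3.3 counts (%), H2afv as a share of H2A.Z counts (%), and cluster histone counts per 100 member counts. Genotypes overlap in both shares, and in the third panel WT lies at 8.52 to 14.7 and LCS at 19.1 to 23.7.

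The linker histone genes had fold changes of opposite sign, neither past the threshold. H1f0, the gene of H1.0, had 96.9, 118 and 102 CPM in LCS and 121, 112 and 114 CPM in WT, and was the 1 member with a log2 fold change under 0, at -0.13 (SE 0.14, edgeR adjusted p = 0.579). H1fx, the gene of H1X, was close to the detection limit, with 49, 57 and 69 counts in LCS and 53, 24 and 11 counts in WT. As CPM it stood at 1.71, 1.12 and 2.201 in LCS and 1.10, 0.592 and 0.287 in WT. The log2 fold change of 1.31 had the widest error of the members (SE 0.48, edgeR adjusted p = 0.145).

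WT replicate 1 was the highest WT library for 9 of 9 members, while it was the highest for 42.0% of all genes tested. Relative to the mean of the other WT libraries it was 2.71-fold higher for H2afj, 2.52-fold for H2afx and 2.51-fold for H1fx, 1.63-fold for H2afv, 1.56-fold for H2afz and 1.37-fold for H3f3b, and 1.03-fold to 1.12-fold for H3f3a, H1f0 and H2afy. Leaving out the highest WT library lowers the WT mean of every member by construction, and the labels give no reason to leave it out. Without that library edgeR called 7 members higher and 0 lower, where 12.5% and 7.68% of all genes were called. H2afj then had a log2 fold change of 1.98 (adjusted p = 0.00062), H2afx 1.40 (0.00751), H2afz 1.176 (0.00307), H2afv 1.16 (0.00341), H1fx 1.91 (0.02), H3f3b 0.53 (0.034) and H3f3a 0.46 (0.0475), all by edgeR. H2afy at 0.31 and H1f0 at -0.09 were not called (edgeR adjusted p = 0.216 and 0.692). Leaving out any other single library gave 0 calls higher among the members, where 0.581%, 1.77% and 0.547% of all genes were called higher without LCS replicates 1, 2 and 3, and 0.748% and 0.931% without WT replicates 2 and 3. Without WT replicates 1 and 2 together, 5 members were called higher (H2afz, H2afv, H2afx, H2afj and H1fx; 5.77% of all genes).

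Transcript length moved with the fold changes of all genes, from a median of 0.46 on the log2 scale for protein-coding genes under 500 nt to -0.24 above 4000 nt. The members ran from 602.5 nt (H3f3a) and 810 nt (H2afz) to 2253.5 nt (H3f3b), as medians of their coding transcripts. With an offset for length in each library, H3f3a was at 0.038 in place of 0.45 (SE 0.12, edgeR adjusted p = 0.881) and H2afz at 0.60 in place of 0.92 (SE 0.18, 0.129), H2afv was at 0.58 (0.146), H2afj at 1.09 (0.128) and H3f3b at 0.36 (0.22). H2afx was at 0.61 (edgeR adjusted p = 0.322), H1fx at 1.06 (0.212), H2afy at 0.20 (0.452) and H1f0 at -0.17 (0.486). The median over the members was then 0.58 with 0 called, in a background of 0.279% called higher. With GC content added to the offset 0 members were called higher (2.36% of protein-coding genes with a length). H3f3a was then at -0.043 (edgeR adjusted p = 0.862), H3f3b at 0.57 (0.131) and H1fx at 0.18 (0.804). In that fit H2afx was at 0.34 (edgeR adjusted p = 0.452), H2afz and H2afv at 0.67 each (0.0799 and 0.0784) and H2afj at 0.98 (0.0618). H2afy was at 0.14 and H1f0 at -0.19 (edgeR adjusted p = 0.509 and 0.36).

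**Figure D4:**
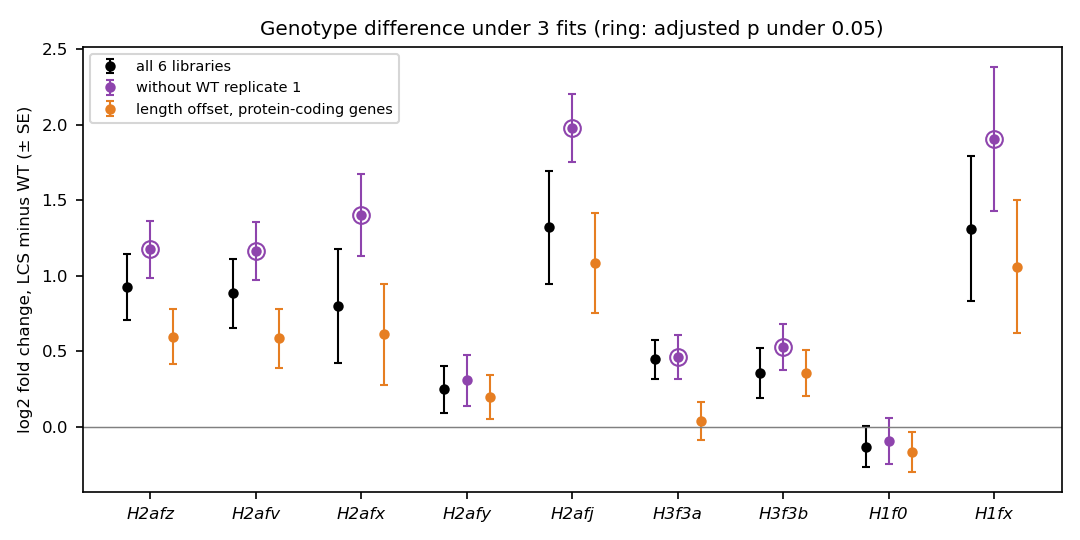
Log2 fold change of LCS over WT with its SE for each gene in 3 edgeR fits: all 6 libraries (black), without WT replicate 1 (purple) and with a transcript length offset (orange), with a ring where the adjusted p is under 0.05. Rings appear in the purple fit alone, for 7 genes, and the orange value of H3f3a lies at 0.038.

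Levels between genes were compared per kilobase of coding transcript. In WT islets H3f3a stood highest at 159 ± 2.68 CPM per kb (SD, n = 3), followed by H2afz at 109 ± 34.5, H3f3b at 74.7 ± 14.3, H1f0 at 56.3 ± 2.44, H2afy at 24.8 ± 1.98, H2afv at 6.32 ± 1.98, H2afj at 5.88 ± 3.71, H2afx at 2.80 ± 1.63 and H1fx at 0.543 ± 0.338. The library ranges of H2afz and H3f3b overlapped, as did those of H2afv, H2afj and H2afx with each other. The first rank of H3f3a depends on the median length of 602.5 nt used for it. Not divided by length, the WT means were 168 CPM for H3f3b, 116 CPM for H1f0 and 95.9 CPM for H3f3a. In LCS islets H3f3a (217 ± 11.9 CPM per kb) and H2afz (207 ± 16.5) overlapped at the top, and H2afj (14.7 ± 3.25) stood above H2afv (11.7 ± 1.19) with overlapping ranges. The order of the other genes was the same in both genotypes.

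Replication-dependent genes of the histone clusters were higher in LCS in many cases. The count data list 68 of them, of which 28 were tested, 13 were called higher and 0 lower, at a median of 1.79 on the log2 scale. Of all genes, 2.06% were called higher and 0.144% lower. The low-count filter can keep a gene through 1 genotype alone, and log2 fold changes of cluster genes ran up to 7.50. Among genes of at least 10 CPM on average, 1 cluster gene was called. It was Hist2h2be, which was lower at -0.76 (edgeR adjusted p = 0.0468). Without WT replicate 1, 23 of 32 were called higher and 1 lower, at a median of 2.68, where 12.5% and 7.68% of all genes were called. Per 100 counts of the 9 replacement genes the cluster genes gave 19.1, 23.7 and 19.4 counts in LCS and 14.7, 8.81 and 8.52 counts in WT. The cluster genes took 0.0193% to 0.0268% of the counts outside the ribosomal RNA rows in LCS and 0.00658% to 0.0157% in WT, without overlap, and the replacement genes 0.101% to 0.113% and 0.0772% to 0.107%, with overlap. These ratios were not tested. As a rule the cluster messages end in a stem-loop in place of a poly(A) tail, while the libraries are labelled as polyadenylated RNA. The ribosomal RNA rows took 52.3% to 54.1% of the LCS counts and 18.5%, 7.64% and 9.999% of the counts of WT replicates 1 to 3. The part of RNA without a poly(A) tail in the cluster counts was not tested. Among the 4 cluster genes with the highest mean CPM, the counts of the linker histone gene Hist1h1e were 5.61-fold higher in LCS. They stood at 9.86 ± 0.644 CPM in LCS and 1.74 ± 1.01 CPM in WT (SD, n = 3, edgeR adjusted p = 0.00948). Hist1h2bc and Hist1h1c had log2 fold changes of 1.34 and 1.32 (edgeR adjusted p = 0.136 and 0.157), and without WT replicate 1 both were called, at 2.30 and 2.37 (0.000482 and 0.000473). In WT replicate 1 they reached 27.2 and 28.1 CPM against 5.54 to 8.32 CPM in the other WT libraries. Hist2h2be was at -0.82 (SE 0.18, edgeR adjusted p = 0.0538) and was called lower in 6 of 17 alternatives, among them DESeq2 (adjusted p = 0.00257) and edgeR without WT replicate 1 (0.00574). Cluster histones are close copies of each other, so single members are uncertain.

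Of the 13 genes for the complexes that place or remove H2A.Z, 1 was called higher and 0 lower, where 2.06% and 0.144% of all genes were called. Log2 fold changes were above 0 for 10 of the 13 and for 51.1% of all genes, with a median of 0.21 over the list. The gene called was Znhit1, which codes for a subunit of the SRCAP complex that loads H2A.Z. It had 30.2, 31.5 and 38.3 CPM in LCS and 20.8, 12.9 and 10.1 CPM in WT, without overlap, and a log2 fold change of 1.19 (SE 0.25, edgeR adjusted p = 0.0419). The call held in 11 of 17 alternatives. It ended with the length offset (0.85, edgeR adjusted p = 0.0908) and on leaving out any single library but WT replicate 1, with edgeR adjusted p of 0.128, 0.0644 and 0.175 without LCS replicates 1, 2 and 3 and 0.166 and 0.0857 without WT replicates 2 and 3. Yeats4, a subunit shared by SRCAP and TIP60, was at 0.71 (SE 0.26) and the ATPase gene Ruvbl1 at 0.44 (SE 0.19), and neither passed (edgeR adjusted p = 0.145 and 0.198). Without WT replicate 1 both were called higher, at 1.08 and 0.65 (edgeR adjusted p = 0.00519 and 0.02). The list then had 4 of 13 genes called higher and 0 lower, against 12.5% and 7.68% of all genes.

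None of the 7 genes for H3.3 deposition passed in edgeR (median -0.06), and 2 were lower with 0 higher at an unadjusted p below 0.05, where 10.8% of all genes were lower. Those were Ubn2, of the HIRA complex, at -0.84 (SE 0.26), and Atrx, the remodeller that works with Daxx, at -0.73 (SE 0.27), by edgeR at adjusted p = 0.11 and 0.149. DESeq2 called Ubn2 (adjusted p = 0.023). Without WT replicate 1 both were called lower (edgeR adjusted p = 0.00555 and 0.0195), where 7.68% of all genes were. Asf1a, the chaperone that hands H3.3 to HIRA, was at 0.53 (SE 0.27, edgeR adjusted p = 0.262). Of the macroH2A relatives and other variants outside the clusters, 9 were in the table and 5 were at 0 in every library. H2afy2, the gene of macroH2A2, was the only one tested, at -0.09 (SE 0.17, edgeR adjusted p = 0.773), with 20.6 ± 3.53 CPM in LCS and 21.9 ± 1.84 CPM in WT (SD, n = 3).

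The 13 general and replication-coupled chaperone genes had a median of -0.01 and 0 calls in edgeR. Unadjusted, 1 was lower and 0 were higher at p below 0.05, where 10.8% of all genes were lower and 13.3% higher. Their members with the smallest p were Set at -0.32, Rbbp7 at 0.31 and Nap1l1 at -0.25 (edgeR adjusted p = 0.187, 0.211 and 0.328). The 10 genes of histone messenger 3' end processing and the histone locus body had a median of -0.16 and 0 calls in edgeR. Unadjusted, 2 were lower and 1 was higher at p below 0.05, against the same shares of all genes. These were Npat at -0.60 (edgeR adjusted p = 0.204), Casp8ap2 at -0.49 (0.189) and Lsm10 at 0.43 (0.195). Without WT replicate 1 Npat was called lower, at -0.78 (edgeR adjusted p = 0.0449). The 12 DNA damage genes, H2afx among them, had a median of -0.22 and 0 calls in edgeR with all 6 libraries. Unadjusted, 4 were lower and 1 was higher at p below 0.05, where 10.8% of all genes were lower and 13.3% higher. Without WT replicate 1, 4 of the 12 were called lower and 1 higher, H2afx, where 7.68% and 12.5% of all genes were called. Among the 4 were Atm at -0.86 and Mdc1 at -0.60 (edgeR adjusted p = 0.0155 and 0.0273). Mdc1 was also called lower with the length and GC offset (edgeR adjusted p = 0.0283), and Rnf8 higher without LCS replicate 2 (0.0457) and by DESeq2 (0.0292). That offset used a length of 649 nt for Mdc1, the median of its annotated coding transcripts. How far the Mdc1 call depends on this length was not tested. Rnf8, the ubiquitin ligase that acts on H2A around breaks, was at 1.10 (SE 0.33, edgeR adjusted p = 0.102), Mdc1, which binds phosphorylated H2A.X, at -0.48 (SE 0.17, 0.138), and the kinase gene Atm at -0.63 (SE 0.26, 0.178).

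**Figure D5:**
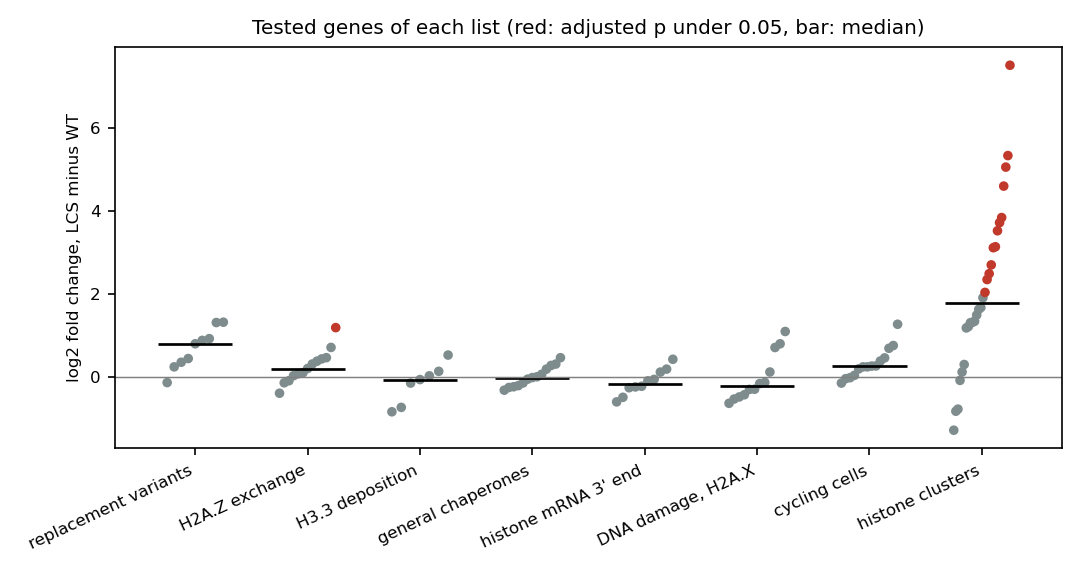
Log2 fold change of LCS over WT of each tested gene in 8 lists, where red marks an adjusted p below 0.05 by edgeR and a bar stands at each median. The median is 0.80 for the replacement variants and 1.79 for the histone clusters, and Znhit1 is the red point among the H2A.Z exchange genes.

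The genes whose library pattern lay nearest to a member, by the root mean square difference of centred log2 CPM over 6 libraries, were Saysd1 (0.0367) and Eif3h (0.0467) for H2afv, Nudt6 (0.0495) and Ndufb8 (0.0568) for H2afz, and Rpl13 (0.106) and Rps19bp1 (0.115) for H2afj. Rpl13, a ribosomal protein gene, had 196, 283 and 308 CPM in LCS and 178, 71.6 and 63.9 CPM in WT, with WT replicate 1 near the LCS libraries as for H2afj. Ndufb8, of respiratory complex I, had 88.1, 105 and 109 CPM in LCS and 70.4, 56.8 and 38.7 CPM in WT.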

How the data were processed

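Polyadenylated RNA of mouse islets was sequenced in 6 libraries. The authors deposited raw whole-number counts for each gene. Tools named in the submitters' processing notes, without a role, are TopHat2 2.1.1 with Bowtie2 2.2.9, and HTSeq 0.9.0. The build named is mm9. Annotation, strand setting and treatment of reads with several matches were not given in the sources used here. Genotype was read from the labels, and replicate numbers follow accession order and only name libraries.

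Counts of all genes were filtered with filterByExpr (14539 of 24407 kept, all 9 members among them), scaled by TMM and tested with the quasi-likelihood test of edgeR 4.0.16 in R 4.3.3, with genotype as the only term and Benjamini-Hochberg adjustment. Fold changes are LCS over WT. For shares an exact permutation test was used (two-sided, smallest possible p 0.1). Lengths and GC content were medians over coding transcripts of GENCODE M21, found for 13623 of 13649 protein-coding genes tested; genes were matched by gene number (24320 of 24407 in RefSeq), and no coordinates were carried to mm9. Length and GC offsets were loess fits (span 0.5) in each library. Other alternatives were DESeq2 1.42.0, limma-voom (limma 3.58.1), other filters and scalings, and leaving out libraries. The steps were tested on simulated counts.

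The members and gene lists were chosen with earlier results of these data known, so list counts and medians are descriptions. The named genes were all members, up to 3 genes of each histone pathway list with the smallest p, the 4 most abundant cluster histone genes, and the 2 genes nearest in pattern to each of the 3 members with the smallest p.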

Additional observations from a re-analysis of the deposited data

How the results depend on the processing

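Over all genes, calls were 937 higher and 571 lower with DESeq2, 560 and 126 without a filter, 38 and 6 with the length offset, 321 and 362 with the length and GC offset (300 and 21 in the reported fit), and 884 and 331 without WT replicates 1 and 2. Leaving out each library in turn gave 81 to 1857 higher and 1 to 1142 lower.

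Members called higher were 4 with DESeq2, 1 with limma-voom, 3 without a filter (H2afz, H2afv and H2afj), 5 without WT replicates 1 and 2 and 0 to 7 when each library was left out in turn, and 0 in the other alternatives; 0 were called lower in any. Only 6 members were tested among genes of at least 10 CPM on average. The members' median log2 fold change was 0.34 with the length and GC offset and 1.32 without WT replicates 1 and 2. It was 0.57 to 1.16 over the libraries left out in turn. With WT replicates 1 and 2 left out the lone WT library is assumed to vary like the LCS libraries. The H3f3a share differed by -1.04 points without WT replicate 1 and -1.46 without WT replicates 1 and 2, and by -1.04 to 2.45 over single libraries left out. The H2afv share differed by -0.74 points without WT replicates 1 and 2, and by -0.54 to 0.032 over single libraries left out. Reversed signs were -0.043 for H3f3a, 0.0196 for Casp8ap2 and -0.00866 for Lsm10 with the length and GC offset, and 0.0325 for H2afy2 without LCS replicate 1 (-0.225 to 0.0325 over single libraries left out) and 0.0299 without WT replicates 1 and 2. The cause was not tested. No paired analysis was possible because the labels number no pairs; replicate numbers only name libraries.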
